A study of Mus musculus with 39 samples.

Results

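Fatty acid oxidation and the genes that the nuclear receptor PPARA switches on were followed in the livers of mice given phenobarbital. The set consisted of 34 named genes, namely 4 of the carnitine shuttle, 11 of mitochondrial beta-oxidation, 5 of peroxisomal oxidation and peroxisome proliferation, 2 Cyp4a omega-hydroxylases, 4 acyl-CoA thioesterases and 8 lipid-handling genes and other PPARA targets. The rule that lists them uses names and no measured value. For each gene the probe set with the highest mean signal was taken among those annotated to that gene alone, which gave 32 genes of the 18193 measured in this way. Cyp4a10 was annotated only on a probe set shared with Cyp4a31, and no probe set was listed for Acsl1, so neither was analysed here. All 32 passed the filter on dim genes, as did 12580 genes in all, and 31 of them lay above the array median on all 39 arrays (Cyp4a14 on 38).

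PPARA is a nuclear receptor that senses fatty acids and pairs with RXR on a direct repeat of the letters AGGTCA. In liver it is most active during fasting, when it switches on fatty acid uptake, activation, oxidation and ketone body synthesis. Long-chain fatty acids enter mitochondria as carnitine esters and are shortened there by acyl-CoA dehydrogenases, hydratases, hydroxyacyl-CoA dehydrogenases and thiolases. Very long chains are shortened first in peroxisomes, Cyp4a enzymes oxidise the far end of the chain, and thioesterases release free acids from coenzyme A. Phenobarbital acts in liver through another nuclear receptor, CAR, the product of Nr1i3.

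The mice were male B6C3F1/Crl hybrids, aged 29 to 32 days on arrival and given 5 days to acclimatise. Treated groups drank phenobarbital at 0.05% (w/v), controls did not, and whole liver was taken after 1, 7, 28 or 91 days, although the treatment protocol speaks of 28 days. There were 4 arrays of day 1 controls and 5 of each of the other 7 groups, each with its own controls of the same day. Nothing in the labels ties each array to an animal of its own, and p-values then reflect only how these samples spread, which may be technical. Levels are log2 signals. A difference is the treated mean less the control mean in log2 units, SE is its standard error, and adjusted p is limma's with Benjamini-Hochberg adjustment over 12580 genes. A gene is called, and said to rise or fall, at an adjusted p under 0.05. The number of arrays limits the precision.

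The arrays were of liver. The 6 measured hepatocyte markers, among them Alb and Ttr, had group means of 14.25 to 14.33 over the list on the log2 scale. The kidney genes Umod and Slc12a1 lay below the lower quartile of the array on 39 of 39 arrays. Kap, Slc34a1, Cdh16 and Aqp2, the other kidney genes of the list, did so on 0 arrays. Their means were 5.24 to 6.02, and Kap reached 7.96. Of 3 kidney genes tested, 0, 1, 0 and 1 rose at days 1, 7, 28 and 91. Over all genes 15.8%, 5.64%, 11.2% and 4.62% did. The CAR target Cyp2b10 was higher by 6.21, 6.36, 6.90 and 5.64 at days 1, 7, 28 and 91 (adjusted p of 2.32e-21 or less by limma). Of the 5 day 7 treated arrays, replicates 2 and 4 had raised skeletal muscle genes and replicate 3 had raised neutrophil genes, and treated replicate 3 of day 1 had raised pancreas genes. Without the muscle-rich pair 8 members fell at day 7 and 0 rose, against 5.90% and 3.59% of all genes. The mean of 18 spike-in probe sets, which carry RNA added by the laboratory, differed between treated arrays and controls by -0.25, 0.89, -0.34 and 0.22 at the 4 days. It did not overlap at day 1 (10.55 to 10.85 in treated arrays against 10.91 to 10.97 in controls) or at day 7 (10.76 to 10.97 against 9.58 to 10.27). The 3′ minus 5′ signal of the housekeeping control probe sets, which rises as RNA degrades, was 0.422 to 0.503 in treated arrays and 0.516 to 0.806 in controls at day 28.

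This repeat was looked for in the promoters, because the genes were grouped by their receptor. RefSeq windows (GRCm38.p6, 250 bases before to 50 after each start site) were found for 27 of the 34 genes, as 30 windows. The letters AGGTCANAGGTCA were searched on both strands, with up to 2 of the 12 fixed letters allowed to differ. A match was present in 3.86% of all 32851 promoters and in 6 of the 27 genes, and with at most 1 mismatch in 0.554% and in Fabp1 alone. The repeat with 4 bases between the copies (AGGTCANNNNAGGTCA) matched 3.02% of all promoters and 1 gene, Acadvl. A match describes letters in the window and shows no binding. The 250 bases before the start site are printed 5′ to 3′ on the gene's strand for 4 genes with a match, with the match in capitals. Fabp1 is shown for the closest match, Acot4 for a match next to the start site, and Plin2 and Cd36 because their signals moved.
Fabp1 (chr6:71199629-71199878, + strand): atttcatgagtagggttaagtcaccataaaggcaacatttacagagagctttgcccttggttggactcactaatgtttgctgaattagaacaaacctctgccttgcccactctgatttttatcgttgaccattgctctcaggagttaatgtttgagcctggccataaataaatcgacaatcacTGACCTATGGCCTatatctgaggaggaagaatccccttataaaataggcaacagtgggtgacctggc
Acot4 (chr12:84038129-84038378, + strand): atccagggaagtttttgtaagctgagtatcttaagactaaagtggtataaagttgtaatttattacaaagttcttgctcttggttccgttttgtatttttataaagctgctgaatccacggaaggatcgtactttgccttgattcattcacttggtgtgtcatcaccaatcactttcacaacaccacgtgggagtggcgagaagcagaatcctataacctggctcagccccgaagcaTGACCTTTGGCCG
Plin2 (chr4:86670060-86670309, - strand): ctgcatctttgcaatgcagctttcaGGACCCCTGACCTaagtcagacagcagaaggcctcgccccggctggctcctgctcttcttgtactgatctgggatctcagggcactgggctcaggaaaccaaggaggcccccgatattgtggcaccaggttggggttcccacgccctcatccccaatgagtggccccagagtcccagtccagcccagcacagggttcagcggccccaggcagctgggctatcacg
Cd36 (chr5:17835897-17836146, - strand): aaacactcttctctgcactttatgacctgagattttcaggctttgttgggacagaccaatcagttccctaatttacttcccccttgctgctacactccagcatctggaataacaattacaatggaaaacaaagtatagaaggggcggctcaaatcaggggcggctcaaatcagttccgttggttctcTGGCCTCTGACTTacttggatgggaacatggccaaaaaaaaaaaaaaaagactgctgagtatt
Counted from the start site, with minus for bases before it, the match ended at base -55 in Fabp1, -1 in Acot4, -213 in Plin2 and -51 in Cd36. In Slc25a20 it lay after the start site, at bases 7 to 19 (AGGTGAAAGGTCG), and in Creb3l3 it ended at base -197 (AGGGGAGAGGTCA). Of these 6 genes, Fabp1 and Creb3l3 were called at 0 of 4 days, Acot4 at 1, Slc25a20 and Cd36 at 2 and Plin2 at 3, all values of which follow.

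Members were lower more often than higher. After 1, 7, 28 and 91 days 9, 10, 14 and 17 of the 32 fell. The same test called 16.7%, 11.4%, 18.1% and 16.1% of all genes lower. Leaving out 1 array gave 5 at day 7 without control or treated replicate 3, 6 at day 7 without control replicate 5 or treated replicate 1 or 5, 6 at day 1 without control replicate 1 or 2, and 10 at day 91 without control or treated replicate 3. Without control or treated replicate 3, 8.97% and 11.2% of all genes were lower at day 7 and 15.2% and 10.9% at day 91. With a covariate for the spike-in signals 1 member was called lower at day 7, and 3.97% of all genes. That member, Etfdh, was not among the 10, none of which stayed called. A covariate for the 3′ minus 5′ signal left 7 members at day 28, and 4.90% of all genes. The member that rose was Cd36 at day 7, and 0 rose at days 1, 28 and 91, where 1, 0 and 0 members had a difference above 0 with an unadjusted p under 0.05 by limma (Creb3l3 at day 1). Of all genes 15.8%, 5.64%, 11.2% and 4.62% were called higher. The median difference of the members was -0.14, -0.17, -0.18 and -0.27, against 0.01, -0.05, -0.02 and -0.07 over all genes tested. With arrays centred on their median the members called lower were 6, 5, 11 and 11, against 12.6%, 6.99%, 13.4% and 8.55% of all genes. All treated arrays lay below all controls for 7, 3, 11 and 5 members, as they did for 13.1%, 7.61%, 9.59% and 8.75% of all genes. They lay above all controls for 0, 1, 0 and 0 members and for 12.8%, 3.61%, 5.8% and 2.54% of all genes. At day 91, 30 of 32 differences lay below 0.

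Over the 4 days, 24 of 32 members fell at 1 or more (40.6% of all genes did), 16 at 2 or more (17.3%), 9 at 3 or more (3.59%) and 1 at all 4 (0.723%). By the same count 1 member rose at 1 or more days (24.8%) and 0 at 2 or more (8.63%). The member called lower at every day was Cpt1a, on its brightest probe set; with the mean of all its probe sets it was called at days 1 and 28 only. The 8 that fell at 3 days were Acadvl, Hadh, Acaa2, Etfdh, Ech1, Pex11a, Acot1 and Plin2. The 8 that were called at no day were Crat, Decr1, Eci1, Ehhadh, Fabp1, Pdk4, Vnn1 and Creb3l3. Most changes were modest, since 38 of the 50 falls were of less than 0.5 on the log2 scale.

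**Figure D1:**
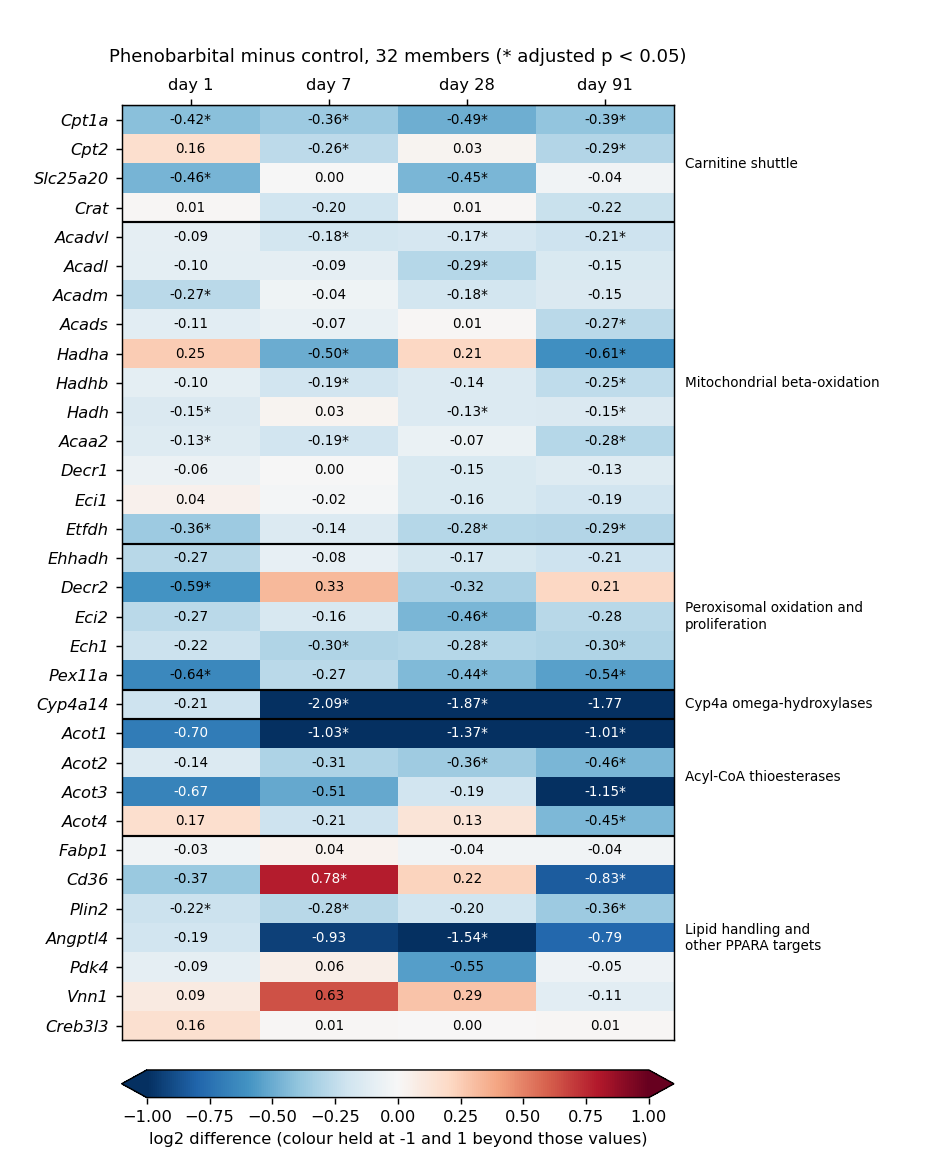
Heat map of phenobarbital minus control (log2) for the 32 members, in rows by class, at days 1, 7, 28 and 91, in columns. Blue is lower and red higher after phenobarbital, with full colour at a difference of 1 or more, and an asterisk marks an adjusted p under 0.05. Cpt1a is lower in all 4 columns, and Cyp4a14, Acot1, Acot3 and Angptl4 hold the darkest cells.

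The receptor itself was lower at every day. Ppara, measured on 3 probe sets, was at day 1 11.18, 10.46, 10.65 and 10.92 in the controls and 9.68, 9.69, 9.68, 10.06 and 9.89 in the treated mice. It differed by -1.0 at day 1 (SE 0.12, adjusted p = 2.44e-07), -0.48 at day 7 (SE 0.12, adjusted p = 0.00405), -0.87 at day 28 (SE 0.12, adjusted p = 1.44e-06) and -0.46 at day 91 (SE 0.12, adjusted p = 0.00532). At each day all treated arrays lay below all controls. At day 91 the Ppara values were 10.27, 10.46, 10.39, 10.53 and 10.66 in the controls and 10.01, 10.11, 9.88, 10.07 and 9.93 in the treated mice. A second probe set gave -1.24 and -1.21 at days 1 and 28 but -0.18 and -0.17 at days 7 and 91, which were not called, and the third gave -0.64, -0.53, -0.70 and -0.52. The size of the Ppara difference varied between days (F test, adjusted p = 0.0167).

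Other regulators listed with PPARA were called at different days. Ppargc1a, a coactivator that raises oxidation genes on fasting, fell by 1.39 at day 1 (SE 0.31, adjusted p = 0.000782) and by 1.36 at day 28 (SE 0.29, adjusted p = 0.000756). At days 7 and 91 its differences were 0.14 and 0.73 and were not called, and the days differed (F test, adjusted p = 0.000245). Fgf21, a hormone made by liver under PPARA, fell by 1.46 at day 1 (SE 0.38, adjusted p = 0.00336) and by 1.03 at day 7 (SE 0.36, adjusted p = 0.0441). For Fgf21 no difference between the days was called (F test, adjusted p = 0.425). Rxra, the pairing receptor, fell at day 91 by 0.39 (SE 0.09, adjusted p = 0.00429). The CAR gene Nr1i3 fell by 0.59 at day 7 (SE 0.12, adjusted p = 0.000635) and 0.50 at day 91 (SE 0.12, adjusted p = 0.0032). At days 1 and 28 Nr1i3 differed by 0.31 and -0.20, not called. All treated arrays at day 1 (9.72 to 10.31) lay above all controls (9.54 to 9.70). The Nr1i3 effect differed between days (F test, adjusted p = 0.000656). Of 13 regulators, 7, 5, 7 and 3 were lower at the 4 days, against 16.7%, 11.4%, 18.1% and 16.1% of all genes. Higher were 1, 1, 0 and 0, against 15.8%, 5.64%, 11.2% and 4.62%, and the gene that rose at days 1 and 7 was Pparg (0.56 and 0.69).

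**Figure D2:**
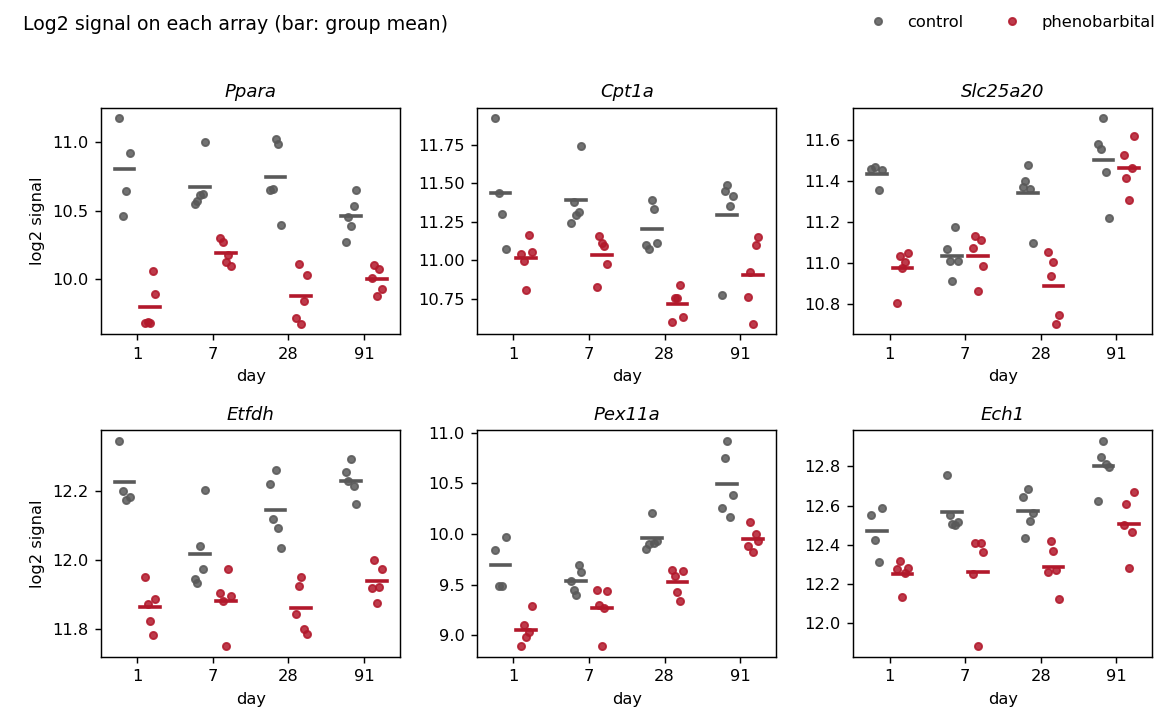
Log2 signal of Ppara and 5 members on every array by day, controls in grey and phenobarbital in red, with bars at the group means. Ppara values do not overlap at any day, whereas the groups of Slc25a20 lie apart at days 1 and 28 and overlap at days 7 and 91.

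In the carnitine shuttle, which carries long-chain fatty acids into mitochondria, Cpt1a was called lower at all 4 days on its brightest probe set. Cpt1a makes the carnitine ester at the outer membrane and is the rate-controlling step. At day 28 its values were 11.10, 11.07, 11.39, 11.33 and 11.11 in the controls and 10.60, 10.75, 10.76, 10.84 and 10.63 in the treated mice. The groups did not overlap, and the change of -0.49 (SE 0.13, adjusted p = 0.00444) was kept without any 1 array of that day. At day 7 the groups did not overlap either, with a change of -0.36 (SE 0.13, adjusted p = 0.0461), but that call was kept only without control replicate 1 or treated replicate 2 among the 10 omissions of 1 array (adjusted p up to 0.15). At day 1 Cpt1a fell by 0.42 (SE 0.13, adjusted p = 0.0156), and without control replicate 1, the highest at 11.93, the difference was -0.26 (adjusted p = 0.137). At day 91 it fell by 0.39 (SE 0.13, adjusted p = 0.0267), which was no longer called without any 1 of control replicates 2 to 5 and treated replicates 1 and 3. On the other 2 Cpt1a probe sets the differences were -0.72 and -0.76 at day 1 and -0.58 and -0.84 at day 28, all called. They were 0.06 and -0.20 at day 7 (adjusted p = 0.867 and 0.52) and 0.13 and -0.07 at day 91, not called. With the mean of all probe sets Cpt1a differed by -0.17 at day 7 and -0.11 at day 91 (adjusted p = 0.463 and 0.63).

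Slc25a20, the carrier that moves carnitine esters across the inner membrane, was lower at days 1 and 28. At day 1 its values were 11.46, 11.47, 11.35 and 11.45 in the controls and 10.80, 11.03, 10.97, 11.01 and 11.05 in the treated mice. The groups lay apart, a change of -0.46 (SE 0.08, adjusted p = 7.84e-05). At day 28 Slc25a20 fell by 0.45 (SE 0.08, adjusted p = 7.56e-05), again without overlap, and at days 7 and 91 the differences were -0.003 and -0.04 with adjusted p of 0.985 and 0.788. The effect differed between days (F test, adjusted p = 0.00105). On a second Slc25a20 probe set the differences were -0.31, -0.21, -0.22 and -0.37, called at days 1, 28 and 91, so the day 91 call depended on the probe set. With the mean of all Slc25a20 probe sets the difference between days was not called (adjusted p = 0.0965).

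Cpt2, which hands the fatty acid back to coenzyme A inside the mitochondrion, fell by 0.26 at day 7 (SE 0.09, adjusted p = 0.0373) and 0.29 at day 91 (SE 0.09, adjusted p = 0.0183). The groups overlapped at both days, and at days 1 and 28 Cpt2 differed by 0.16 and 0.03, not called. The day 7 call was lost without any 1 of control replicates 1 to 3 and treated replicates 1, 3 and 5, and the day 91 call without control replicate 3 or 4 or treated replicate 3. A dimmer Cpt2 probe set rose by 0.33 at day 7 (adjusted p = 0.0151), opposite to the first, so no direction holds for Cpt2 at day 7. Crat, which makes short-chain carnitine esters, had no call on its brightest probe set, and its other 2 fell by 0.63 and 0.48 at day 91 (adjusted p = 0.0015 and 0.00995). In the class, 2 of 4 members fell at each day, where 16.7%, 11.4%, 18.1% and 16.1% of all genes did.

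Within mitochondria the falls were small but tight. Of 11 beta-oxidation members, 4, 4, 5 and 7 fell at the 4 days and 0 rose, with medians of -0.10, -0.09, -0.15 and -0.21. Over all genes 16.7%, 11.4%, 18.1% and 16.1% fell. Etfdh, which passes the electrons of the dehydrogenases to ubiquinone, showed the clearest change. At day 1 Etfdh was 12.35, 12.20, 12.17 and 12.18 in the controls and 11.95, 11.87, 11.82, 11.78 and 11.89 in the treated mice. The change of -0.36 (SE 0.05, adjusted p = 5.09e-06), with no overlap, stood beside falls of 0.28 at day 28 (SE 0.05, adjusted p = 9.63e-05) and 0.29 at day 91 (SE 0.05, adjusted p = 0.000124), also without overlap. At day 7 Etfdh differed by -0.14 and was not called (adjusted p = 0.0573).

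The acyl-CoA dehydrogenases take the first step for chains of different length. Acadvl, for the longest chains, fell by 0.18, 0.17 and 0.21 at days 7, 28 and 91 (adjusted p = 0.0093, 0.00926 and 0.0031). Acadm, for medium chains, fell by 0.27 at day 1 (SE 0.06, adjusted p = 0.000701) and 0.18 at day 28 (adjusted p = 0.0144), both without overlap. The day 28 call of Acadm was lost without control replicate 3 (-0.16, adjusted p = 0.051). Acadl, for long chains, fell at day 28 by 0.29 (SE 0.06, adjusted p = 0.000386), and Acads, for short chains, fell at day 91 by 0.27 (SE 0.07, adjusted p = 0.00496), and in each case the groups did not overlap. Each of the 4 was lower at 1 or more days, and for none of them was a difference of the effect between the 4 days called by the F test. Single contrasts were called for Acadm from day 1 to day 7 (0.23) and for Acads from day 28 to day 91 (-0.28).

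Hadha and Hadhb encode the alpha and beta subunits of the trifunctional protein, which carries out the last steps on long chains. Their genes stand head to head, with start sites 273 bases apart on chromosome 5 (30154980 for Hadha on the minus strand, 30155253 for Hadhb on the plus strand), so their promoter windows share 228 bases. The 250 bases before the Hadhb start site are shown because both genes read out from them.
Hadhb (chr5:30155003-30155252, + strand): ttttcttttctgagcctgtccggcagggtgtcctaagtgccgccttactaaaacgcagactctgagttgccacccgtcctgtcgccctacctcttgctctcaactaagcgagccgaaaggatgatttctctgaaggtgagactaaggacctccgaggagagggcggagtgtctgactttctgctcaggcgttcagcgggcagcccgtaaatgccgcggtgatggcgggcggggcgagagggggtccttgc
Hadha was 11.59, 11.36, 11.52, 11.08 and 11.29 in the controls and 10.65, 11.06, 10.82, 10.97 and 10.86 in the treated mice at day 7, without overlap and with a change of -0.50 (SE 0.13, adjusted p = 0.00919). At day 91 it fell by 0.61 (SE 0.13, adjusted p = 0.00168), and the groups overlapped only through control replicate 1, at 10.33. At days 1 and 28 Hadha differed by 0.25 and 0.21, not called, and the days differed (F test, adjusted p = 0.000573). Hadhb also fell at days 7 and 91, by 0.19 (SE 0.06, adjusted p = 0.0349) and 0.25 (SE 0.06, adjusted p = 0.00602), with -0.10 and -0.14 at days 1 and 28. The day 7 call of Hadhb was kept only without control replicate 4 or treated replicate 2 or 4. Its other 2 probe sets were called at days 1 (-0.44 and -0.51) and 28 (-0.33 and -0.45), with 1 of them at day 7 (-0.47) and neither at day 91, so the days of change in Hadhb depended on the probe set.

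Among the other enzymes of the spiral, the thiolase Acaa2 fell by 0.13, 0.19 and 0.28 at days 1, 7 and 91 (adjusted p = 0.0408, 0.00453 and 7.67e-05). The day 1 call of Acaa2 was kept only without treated replicate 1 or 2, and the other 2 calls were kept in every omission of 1 array. The other 2 Acaa2 probe sets differed by -0.10 and 0.04 at day 1 (adjusted p = 0.129 and 0.822) and neither was called. Hadh, the short-chain hydroxyacyl-CoA dehydrogenase, fell by 0.15, 0.13 and 0.15 at days 1, 28 and 91 (adjusted p = 0.0204, 0.0295 and 0.0229). The day 1 call was lost without control replicate 2 or treated replicate 4, the day 28 call without control replicate 1 or 3 or treated replicate 1, 2 or 5, and the day 91 call without control replicate 3 or treated replicate 1 or 3. The other 2 Hadh probe sets had no call at days 1 and 28, and 1 of them fell by 0.29 at day 91. Decr1 and Eci1, which prepare unsaturated chains, had differences of -0.15 to 0.00 and -0.19 to 0.04 over the 4 days and no call.

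Of the 5 peroxisomal members, 2, 1, 3 and 2 fell and 0 rose, with medians of -0.27, -0.16, -0.32 and -0.28. Over all genes 16.7%, 11.4%, 18.1% and 16.1% fell. Pex11a, which drives peroxisome division, led the 5 members. At day 1 Pex11a was 9.84, 9.49, 9.48 and 9.97 in the controls and 8.89, 9.10, 8.98, 9.03 and 9.29 in the treated mice. The highest treated array lay below the lowest control, and the fall was 0.64 (SE 0.13, adjusted p = 0.000184). It fell also by 0.44 at day 28 (SE 0.12, adjusted p = 0.00554) and by 0.54 at day 91 (SE 0.12, adjusted p = 0.00157), both without overlap, and differed by -0.27 at day 7 (adjusted p = 0.11). The control level of Pex11a rose by 0.80 from day 1 to day 91 (adjusted p = 6.55e-06), so that the treated mean at day 91, 9.95, lay near the control mean at day 28, 9.96.

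Ech1, an isomerase of unsaturated chains, fell by 0.30, 0.28 and 0.30 at days 7, 28 and 91 (adjusted p = 0.00866, 0.00859 and 0.00875). At day 1 Ech1 differed by -0.22, just outside the threshold (adjusted p = 0.0507). Eci2, another isomerase, was at day 28 11.13, 11.12, 11.59, 11.20 and 11.01 in the controls and 10.68, 10.78, 10.83, 10.78 and 10.68 in the treated mice. Its change of -0.46 (SE 0.11, adjusted p = 0.00163) was the largest of the class at that day, without overlap, and the other days were not called. Decr2, a reductase, fell by 0.59 at day 1 (SE 0.14, adjusted p = 0.00139) and differed by 0.33, -0.32 and 0.21 afterwards, so its effect varied between days (F test, adjusted p = 0.000865). Ehhadh, the bifunctional enzyme and a classical PPARA target, had differences of -0.27, -0.08, -0.17 and -0.21 and no call, with adjusted p of 0.105 to 0.688.

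The omega-hydroxylase Cyp4a14, a highly responsive PPARA target in mouse liver, had the largest differences and the widest spread. At day 7 it was 10.75, 10.33, 11.07, 10.39 and 10.48 in the controls and 6.93, 8.0, 6.93, 9.95 and 10.75 in the treated mice. The controls lay within 10.33 to 11.07, whereas the treated arrays ran from 6.93 to 10.75, a change of -2.09 (SE 0.70, adjusted p = 0.0353), to which replicates 4 and 5 hardly contributed. At day 28 Cyp4a14 was 7.65, 7.29, 10.09, 8.17 and 6.29 in the controls and 6.06, 6.37, 5.49, 6.35 and 5.85 in the treated mice. The groups overlapped through 1 control, and the change of -1.87 (SE 0.70, adjusted p = 0.0407) became a difference of -1.33 (adjusted p = 0.169) without control replicate 3. The day 7 call was kept only without control replicate 2 or 4 or treated replicate 4 or 5, and the day 28 call only without control replicate 2 or 5. At days 1 and 91 the differences were -0.21 and -1.77 (SE 0.74 and 0.70, adjusted p = 0.855 and 0.0662). Its residual SD of 1.18 compares with a median of 0.14 over all genes tested. In controls Cyp4a14 fell by 3.56 from day 1 to day 28 (adjusted p = 0.00054), a change larger than any effect of treatment on it.

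The acyl-CoA thioesterases Acot1 to Acot4 are close copies that lie side by side on chromosome 12, with start sites within 64.3 kb, and how far their probe sets read each other was not tested. A probe set shared by Acot1 and Acot2 was left out. Acot1, the cytosolic enzyme, was at day 28 8.85, 8.35, 9.78, 8.75 and 8.17 in the controls and 7.19, 7.57, 7.59, 7.79 and 6.92 in the treated mice. Every treated array lay below every control, a change of -1.37 (SE 0.36, adjusted p = 0.00468) that was kept without any 1 array. Acot1 fell by 1.03 at day 7 (SE 0.36, adjusted p = 0.0446) and by 1.01 at day 91 (SE 0.36, adjusted p = 0.0433), with overlap. The difference at day 7 was -0.63 (adjusted p = 0.191) without treated replicate 3, which lay at 5.76, and that call was also lost without any 1 of control replicates 1, 2, 3 and 5 and treated replicate 5. The day 91 call was lost without control replicate 2, 3 or 4 or treated replicate 3 or 4.

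At day 91 all 4 thioesterases fell on their brightest probe sets. Acot3, a peroxisomal enzyme, was 7.96, 8.68, 9.35, 8.52 and 7.46 in the controls and 7.11, 7.84, 6.78, 7.04 and 7.44 in the treated mice. Its change of -1.15 (SE 0.29, adjusted p = 0.00557) was kept without any 1 array, although the groups overlapped. Acot2, the mitochondrial enzyme, fell by 0.46 (SE 0.14, adjusted p = 0.018) and had fallen by 0.36 at day 28 (adjusted p = 0.0475). The day 91 call of Acot2 was lost without control replicate 3 or treated replicate 3 or 4, and the day 28 call was kept only without control replicate 5 or treated replicate 3 or 4. Acot4 fell by 0.45 (SE 0.17, adjusted p = 0.0499), at the edge of the threshold. Among omissions of 1 array it kept the call only without control replicate 1 or 5 or treated replicate 2, and the call held in 6 of 23 alternatives. A second Acot4 probe set differed by -0.36, -0.26, -0.40 and -0.30 and was called at no day (limma adjusted p = 0.191 at day 91). The first differed by 0.17 and 0.13 at days 1 and 28, so the call of Acot4 depended on the probe set. On the brightest probe sets the class medians were -0.40, -0.41, -0.27 and -0.73 over the 4 days, with 0, 1, 2 and 4 of 4 lower. Over all genes 16.7%, 11.4%, 18.1% and 16.1% were lower.

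**Figure D3:**
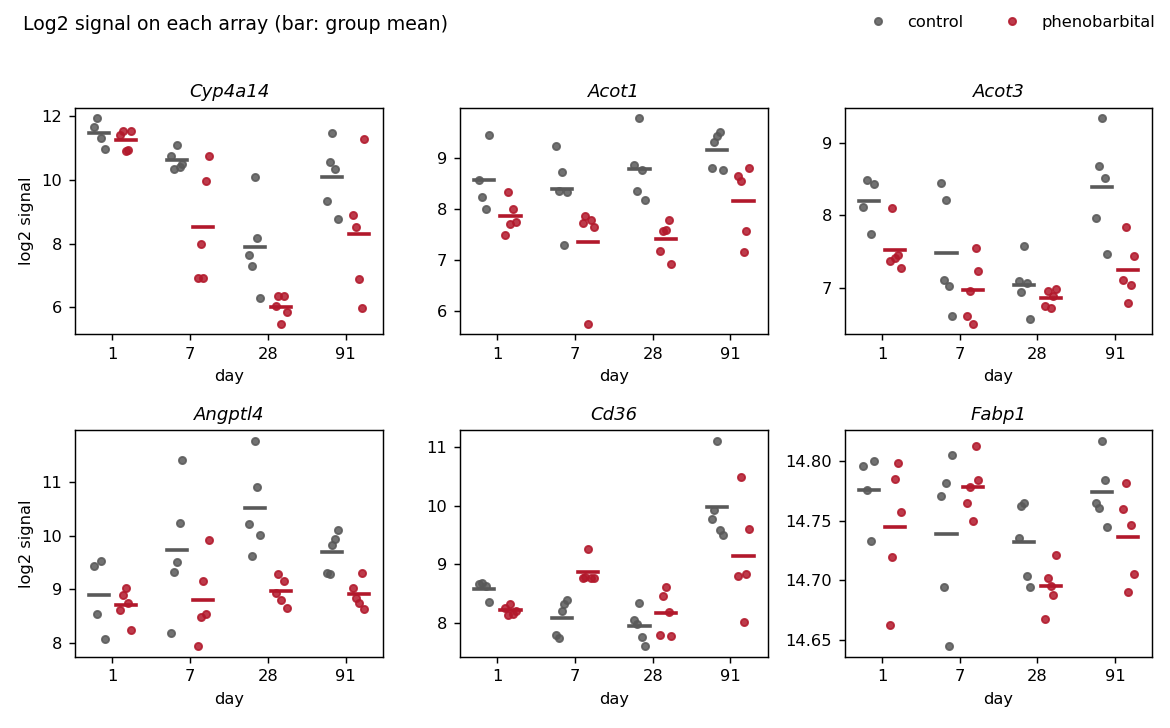
Log2 signal of 6 members on every array by day, controls in grey and phenobarbital in red, with bars at the group means and a separate vertical scale in each panel. Cyp4a14 spreads over several log2 units within groups, Cd36 is higher in all 5 treated arrays at day 7, and Fabp1 stays between 14.64 and 14.82, at the top of the scale.

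The lipid-handling members went different ways. Plin2, which coats lipid droplets, fell by 0.22, 0.28 and 0.36 at days 1, 7 and 91 (adjusted p = 0.0493, 0.0174 and 0.00218) and differed by -0.20 at day 28 (adjusted p = 0.0669). At day 91 Plin2 was 13.05, 13.30, 13.44, 13.27 and 13.21 in the controls and 12.995, 12.96, 12.78, 12.94 and 12.77 in the treated mice. The groups did not overlap there, and that call was kept without any 1 array. The day 7 call of Plin2 was lost without control replicate 1 or treated replicate 5 (-0.23 and -0.24), and the day 1 call was kept only without control replicate 3 or treated replicate 2 or 4.

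Angptl4, a secreted inhibitor of lipoprotein lipase, was at day 28 10.23, 9.62, 11.78, 10.91 and 10.02 in the controls and 8.93, 9.29, 8.81, 9.16 and 8.66 in the treated mice. All 5 treated arrays lay below all controls, a change of -1.54 (SE 0.40, adjusted p = 0.00385). At the other days Angptl4 differed by -0.19, -0.93 and -0.79 and was not called. Its control mean rose by 1.62 from day 1 to day 28 (adjusted p = 0.00492), while the treated means stayed between 8.70 and 8.97.

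Cd36, a fatty acid uptake receptor, changed direction. At day 7 it was 7.79, 7.75, 8.20, 8.32 and 8.38 in the controls and 8.77, 8.78, 9.26, 8.77 and 8.76 in the treated mice. All treated arrays lay above all controls, a rise of 0.78 (SE 0.28, adjusted p = 0.0486), but the call was kept only without control replicate 4 or 5 (adjusted p up to 0.112). The other 2 Cd36 probe sets differed by 0.77 and 0.32 at day 7 (adjusted p = 0.0894 and 0.516) and neither was called, and with the mean of all probe sets the difference was 0.62 and not called (adjusted p = 0.136). At day 91 Cd36 was 9.78, 9.93, 11.11, 9.58 and 9.49 in the controls and 8.79, 10.49, 8.01, 8.83 and 9.60 in the treated mice. It fell by 0.83 (SE 0.28, adjusted p = 0.0316), with overlap, and differed by -0.55 without control replicate 3 or treated replicate 3 (adjusted p = 0.136 and 0.153), and the call was also lost without control replicate 2 or treated replicate 1 or 4. The effect differed between days (F test, adjusted p = 0.00884), and from day 7 to day 91 it went down by 1.61 (adjusted p = 0.0383). At day 1 Cd36 differed by -0.37 and was not called (adjusted p = 0.349), although all treated arrays lay below all controls. A change in both directions was found for 4.25% of all genes. Cd36 is also made by macrophages and adipocytes. The mean of 6 macrophage genes at day 7 was 8.88 to 10.61 in treated arrays and 9.25 to 9.74 in controls. Of 6 adipocyte genes 4 were on the array, and their mean at day 7 was 5.88 to 6.18 in treated arrays and 5.80 to 5.90 in controls. Retn and Fabp4, the 2 that passed the filter, differed by 0.05 and 0.26 at day 7 and were not called at any day, and Adipoq lay below the lower quartile on 37 of 39 arrays. The part of these cells in the Cd36 difference was not tested.

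Fabp1, the main fatty acid binding protein of hepatocytes and the gene with the closest promoter match, differed by -0.03, 0.04, -0.04 and -0.04. Its residual SD of 0.04 was in the lowest 0.2% of genes tested. Its mean signal of 14.75 was at the top of the scale (percentile 100 of genes), where differences may be compressed, so these values cannot show that Fabp1 did not change. Pdk4, which shuts pyruvate out of oxidation on fasting, differed by -0.09, 0.06, -0.55 and -0.05 (SE 0.33 to 0.35), Vnn1 by 0.09, 0.63, 0.29 and -0.11 (SE 0.36 to 0.38) and Creb3l3, a partner transcription factor, by 0.16, 0.01, 0.00 and 0.01 (SE 0.07). None of these was called, and the residual SDs of Pdk4 and Vnn1, 0.55 and 0.61, were wide.

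**Figure D4:**
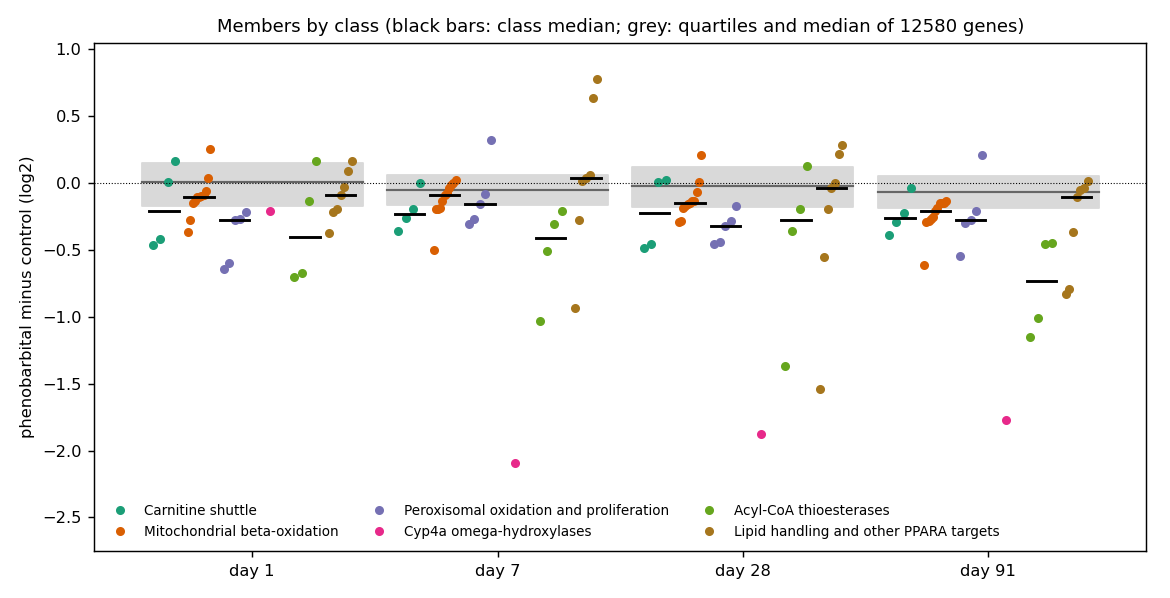
Phenobarbital minus control (log2) of each member at the 4 days, coloured by class, with black bars at the class medians and grey bands at the quartiles of 12580 genes. The thioesterase median moves from -0.40 at day 1 to -0.73 at day 91, and the mitochondrial median moves from -0.10 to -0.21.

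Set side by side, the mitochondrial, peroxisomal, thioesterase and Cyp4a classes differed in size more than in direction. The median of the mitochondrial class never passed -0.21 and that of the peroxisomal class never passed -0.32. The thioesterase median reached -0.73, and Cyp4a14, a single gene with a wide spread, reached -2.09. The carnitine medians were -0.21, -0.23, -0.22 and -0.26, and those of the lipid-handling class, of mixed direction, were -0.09, 0.04, -0.04 and -0.11. The differences between classes were not tested, since the classes share arrays and hold few genes. The spread went the same way. Residual SDs were 0.07 to 0.22 for the mitochondrial members, 0.13 to 0.22 for the peroxisomal members, 0.23 to 0.61 for the thioesterases and 1.18 for Cyp4a14. The classes also differed in mean signal. It was 10.71 to 13.65 for the mitochondrial members, 9.69 to 12.46 for the peroxisomal members, 7.19 to 8.20 for the thioesterases and 9.21 for Cyp4a14. Differences may be compressed at high signal, and the part of signal level in these sizes and spreads was not tested.

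The phenobarbital effect differed between days for 5 of 32 members, Cd36, Cpt2, Decr2, Hadha and Slc25a20 (F test), against 35.1% of all genes. From day 1 to day 7 the effect went up for 5 members (8.16% of all genes), Acadm, Cd36, Decr2, Etfdh and Slc25a20, and down for Cpt2 and Hadha (13.1%). From day 7 to day 28 it went up for Hadha (5.98%) and down for Decr2 and Slc25a20 (5.78%). From day 28 to day 91 it went up for Decr2 and Slc25a20 (9.13%) and down for Acaa2, Acads and Hadha (12.5%). None of the pairwise differences between days 1 and 28 was called for a member (0.572% of all genes were called higher and 2.68% lower). Between days 7 and 91, 1 was called, Cd36 (0.437% of all genes were lower). The differences of Slc25a20 and Decr2 were lowest at days 1 and 28, and those of Hadha and Cpt2 at days 7 and 91. The spike-in mean moved in the same alternation, by -0.25 and -0.34 at days 1 and 28 and by 0.89 and 0.22 at days 7 and 91, and the 3′ minus 5′ signal differed by -0.09 and -0.20 at days 1 and 28 and by -0.03 and 0.05 at days 7 and 91. When the spike-in mean was added to the fit, Cd36 and Hadha stayed called for a difference between days (adjusted p = 0.0327 and 0.0274), and Slc25a20, Decr2 and Cpt2 did not (0.112, 0.0623 and 0.145). With the 3′ minus 5′ signal Cpt2 did not (0.0787) and the other 4 did. With the mean of all probe sets Slc25a20 and Cpt2 did not (0.0965 and 0.349). At day 7, with the spike-in covariate, 1 member was called lower in place of 10, and 3.97% of all genes in place of 11.4%. That member was Etfdh, which was not called at day 7 without the covariate, and none of the 10 stayed called. The spike-in covariate changed the day 7 Hadha difference from -0.50 to -0.04 and the Cpt2 difference to 0.03. The spike-in mean did not overlap between treated and control arrays at day 7 or at day 1, so it cannot be told apart from treatment at either day. At day 28, where the 3′ minus 5′ signal did not overlap, that covariate left 7 members lower in place of 14, and 4.90% of all genes in place of 18.1%.

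**Figure D5:**
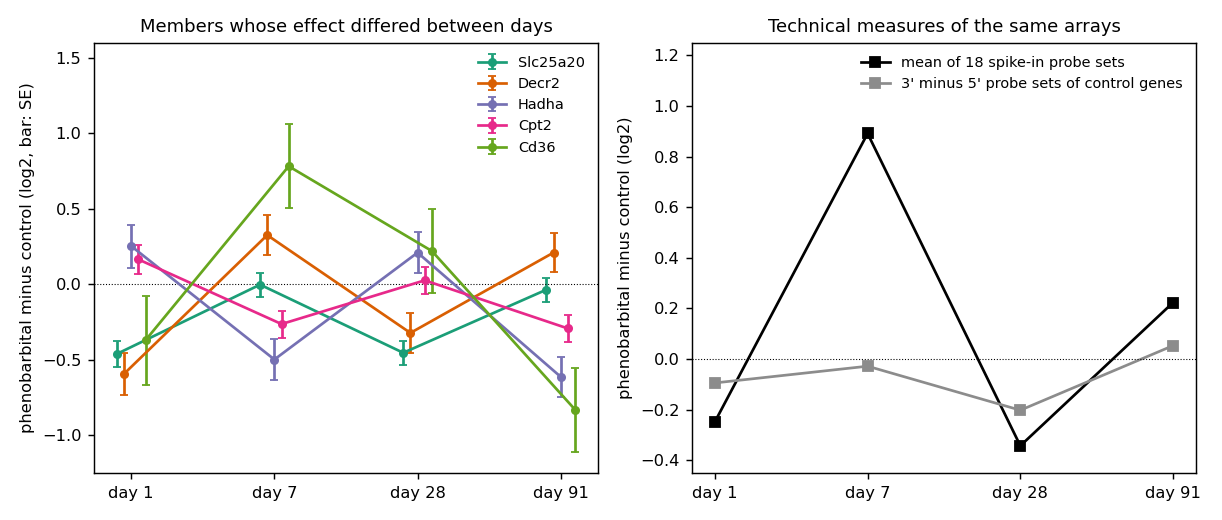
Left, phenobarbital minus control (log2, bars are SE) at the 4 days for the 5 members whose effect differed between days. Right, the same difference for the mean of 18 spike-in probe sets and for the 3′ minus 5′ signal. Slc25a20 and Decr2 follow the alternation of the spike-in mean between days 1 and 28 and days 7 and 91, and Hadha and Cpt2 run against it.

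Without treatment 21 of 32 members changed over the 4 days (66% of all genes did). From day 1 to day 91 Pex11a, Cd36, Plin2, Ech1, Acads, Crat, Acadm and Eci1 rose in controls, by 0.23 to 1.39, as did 19.7% of all genes. Cd36 rose the most of them (adjusted p = 0.00037). By day 28 Cyp4a14, Vnn1, Acot3 and Acot4 had fallen in controls, with differences of -3.56, -1.26, -1.15 and -0.61, as had 11.8% of all genes. The male-biased genes of liver, which mark sexual maturation, had a mean of 9.76 to 12.82 on day 1 control arrays and 13.20 to 13.38 on day 28 control arrays. Their part in the changes over time was not tested. After phenobarbital 3, 2, 0 and 0 of 5 male-biased genes fell and 0, 1, 0 and 0 rose, with medians of -0.93, -0.56, -0.06 and -0.11. A covariate of their mean therefore moved with treatment at days 1 and 7. With it in the fit, 21 members changed over time in controls, and the share of all genes was not counted there. After phenobarbital 8, 7, 15 and 18 members fell, against 15.8%, 11.6%, 19.0% and 16.9% of all genes.

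Outside the 34, the same pathways gave a mixed picture. Of 86 other genes of lipid oxidation and PPARA response tested, 25, 10, 21 and 22 were lower and 9, 7, 7 and 4 higher at the 4 days. Their medians were -0.08, -0.02, -0.05 and -0.14. The shares of all genes were 16.7%, 11.4%, 18.1% and 16.1% lower and 15.8%, 5.64%, 11.2% and 4.62% higher. Of 20 peroxisomal genes, 7, 1, 4 and 5 fell and 1, 1, 2 and 1 rose, with medians of -0.08, -0.02, -0.03 and -0.12. Crot, which makes carnitine esters in peroxisomes, fell by 0.59 at day 1 (SE 0.09, adjusted p = 4.38e-06) and 0.67 at day 28 (SE 0.08, adjusted p = 3.11e-07), and Acaa1a, a thiolase, by 0.76 and 0.56 (adjusted p = 0.000128 and 0.00256). Both differed between days (F test, adjusted p = 0.00032 and 0.000337). Acat1, which works in ketone synthesis and use, fell at all 4 days, by 0.24, 0.31, 0.40 and 0.23.

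Some genes of these lists rose. Cyp4f15, another omega-hydroxylase, rose by 0.62 at day 1 (SE 0.08, adjusted p = 1.23e-06), 0.44 at day 7 and 0.43 at day 28, while Cyp4a31 fell by 0.97 at day 28 (SE 0.27, adjusted p = 0.00745). Aqp3, a glycerol channel, rose by 0.58, 0.51, 0.61 and 0.60 from control means of 4.84 to 5.36, below the array medians of 5.69 to 5.80. Me1, which makes NADPH for lipid synthesis, rose by 0.60 at day 7 and 0.54 at day 28, and Acacb, whose product malonyl-CoA inhibits Cpt1a, rose by 0.86 at day 28 (SE 0.24, adjusted p = 0.00788). At day 91 Lpl, the lipase that Angptl4 inhibits, rose by 0.97 (SE 0.15, adjusted p = 1.39e-05) and Fabp5 by 0.60, while the lipid transfer protein Pltp fell by 1.17 (SE 0.19, adjusted p = 5.3e-05), Fabp2 by 0.54 and Aldh3a2 by 0.53. Lpin1 and Ppard fell by 1.14 and 0.82 at day 7 (adjusted p = 0.0457 and 0.0106).

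Fasting state and hour of day both move PPARA targets, and neither is given in the labels. Of 7 gluconeogenesis and fasting genes, 2, 2, 3 and 1 fell and 0 rose, and 5, 7, 7 and 6 had a difference below 0. Their medians were -0.15, -0.40, -0.22 and -0.26, against -0.14, -0.17, -0.18 and -0.27 for the members. Irs2 fell by 0.88 at day 1 and 1.15 at day 28 (adjusted p = 0.00518 and 0.000323), and Pck1 by 1.01 at day 28 (adjusted p = 0.0178). Of 12 circadian clock genes, 0, 0, 1 and 0 fell and 0 rose at an adjusted p under 0.05 (limma), and 3, 0, 3 and 0 had an unadjusted p under 0.05. Differences below 0 numbered 11, 6, 7 and 5 of the 12, with medians of -0.19, 0.02, -0.09 and 0.03. The gene that fell was Clock, by 0.43 at day 28 (adjusted p = 0.0128). The part of feeding and hour in the changes of the members was not tested. In whole liver, fewer cells of a type and less RNA per cell cannot be told apart. Of the 6 hepatocyte markers 1, 0, 1 and 1 fell (Fga at days 1 and 91 and Apoa1 at day 28), by 0.12, 0.11 and 0.06, and 0 rose. Of 5 endothelial markers 1, 1, 3 and 2 fell at the 4 days and 0 rose, with median differences of -0.17, -0.23, -0.26 and -0.08. Of 5 stellate cell and fibroblast markers 0, 2, 2 and 2 fell and 0 rose, with median differences of 0.04, 0.03, -0.14 and -0.30. Beside these marker counts, 16.7%, 11.4%, 18.1% and 16.1% of all genes fell. The ranges of the endothelial mean were 8.78 to 8.99, 8.60 to 9.003, 8.22 to 8.69 and 8.08 to 8.39 in treated arrays and 8.86 to 9.23, 8.76 to 9.23, 8.47 to 8.99 and 8.16 to 8.55 in controls. Those of the stellate mean were 9.12 to 9.3995, 8.77 to 9.16, 7.89 to 8.30 and 7.89 to 8.13 in treated arrays and 9.01 to 9.56, 8.98 to 9.28, 8.34 to 8.49 and 8.18 to 8.43 in controls, without overlap at days 28 and 91. The part of these cells in the lower members was not tested.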

How the data were processed

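Whole-liver RNA was measured on 39 Affymetrix mouse arrays. The authors deposited 1 log2 signal per probe set and array, 45101 in all, with array medians of 5.69 to 5.80. The labels' protocols name an in vitro transcription labelling kit that primes at the 3′ end, and GCOS is named per the submitters' processing notes. The normalization method is not given in the sources used here, and signals near either end of the scale may be compressed by any such method. Replicates correlated at 0.989 to 0.996 across all probe sets.

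Of the probe sets, 34958 had 1 gene symbol in the platform annotation and 932 had several. A gene was tested if its probe set lay above the array median on at least 4 arrays. limma 3.58.1 in R 4.3.3 fitted 1 mean per group over all 39 arrays with a prior that follows the mean signal (degrees of freedom 31 residual and 4.46 prior). Contrasts were treated minus control at each day, differences of these between days (with an F test over the 4 days), and change over time in controls. Values of further probe sets come from a separate fit, adjusted over all probe sets that passed. The script was tested on simulated data. All members are named, and of the other pathway genes the 3 largest called rises and falls at each day, with Ppara, Nr1i3 and Cyp2b10 always; Rxra, Crot, Acaa1a, Acat1, Irs2, Pck1, Clock, Fga and Apoa1 were added after their values were seen. The members and lists were chosen with earlier results of these data known. Alternatives covered normalization, filter, probe set, prior, array weights, covariates and single arrays left out.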

Additional observations from a re-analysis of the deposited data

Results flagged for a closer look

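In groups of 4 or 5 arrays, 17 of 256 member groups held a value far from the rest by Dixon's test at the 95% level, where chance alone would mark about 12.8 (1 in 20). They lay on 13 arrays. Among controls, Cpt1a lay at 11.74 on day 7 replicate 5 (nearest 11.38) and at 10.78 on day 91 replicate 1 (nearest 11.35). On the same day 91 array Cpt2 was 11.23 (nearest 11.74). On day 91 control replicate 3 Cd36 was 11.11 (nearest 9.93) and Acot2 was 8.90 (nearest 8.47). On day 1 control replicate 1 Acaa2 was 13.40 (nearest 13.33) and Etfdh was 12.35 (nearest 12.20), and on replicate 3 Slc25a20 was 11.35 (nearest 11.45). At day 7 Hadhb was 12.03 in control replicate 4 (nearest 12.18) and Ech1 was 12.76 in control replicate 1 (nearest 12.55). At day 28 Decr2 was 9.91 in control replicate 5 (nearest 10.33) and Pex11a was 10.21 in control replicate 3 (nearest 9.93).

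Among treated arrays, day 7 replicate 3, which also had raised neutrophil genes, had the lowest Acot1 at 5.76 (nearest 7.64) and the highest Cd36 at 9.26 (nearest 8.78). Acot3 was 8.11 on day 1 replicate 2 (nearest 7.45), Decr1 was 12.15 on day 91 replicate 3 (nearest 12.32) and Acot4 was 7.51 on day 91 replicate 2 (nearest 7.05).

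The phenobarbital effect differed between days by limma's F test for Hadha (adjusted p = 0.000573), Decr2 (0.000865), Slc25a20 (0.00105), Cd36 (0.00884) and Cpt2 (0.0109). Each of the 5 stayed called in all 39 omissions of 1 array. With the mean of all probe sets Slc25a20 and Cpt2 were not called (0.0965 and 0.349), and with the spike-in covariate Slc25a20, Decr2 and Cpt2 were not (0.112, 0.0623 and 0.145).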

How the results depend on the processing

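Of 51 called changes of a member at a day, 20 stayed called under every alternative run and 31 were lost under 1 or more. Those kept were at day 1 Slc25a20, Acadm, Etfdh, Decr2 and Pex11a, at day 28 Cpt1a, Slc25a20, Etfdh, Eci2, Ech1 and Pex11a, and at day 91 Acadvl, Acads, Hadha, Acaa2, Etfdh, Ech1, Pex11a, Acot3 and Plin2, with none at day 7. Of 77 uncalled differences 22 were called under 1 or more alternatives. The direction of a called change turned for Cpt2 at day 7, to 0.0344 with the mean of all probe sets and to 0.0299 with the covariate of spike-in signals, neither called.

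Members lower numbered 5 at day 7 and 11 at day 91 with arrays centred on their median (6.99% and 8.55% of all genes). They numbered 5 at day 7 with only the groups compared (8.62%) and 1 at day 7 with the spike-in covariate (3.97%). With the 3′ minus 5′ covariate they numbered 7 at day 28 (4.90%). Members higher at day 7 numbered 2 with array weights (7.40% of all genes). They numbered 0 with no filter, the mean of all probe sets, no trend, a robust prior, the spike-in covariate, the covariate of male-biased genes, or without the 2 arrays with raised muscle genes. In these settings 2.79% to 5.61% of all genes were higher at day 7. Members higher at day 1 numbered 1 with median centring, array weights or the male-biased covariate (21.3%, 19.5% and 13.7% of all genes). At day 28 they numbered 1 with array weights (16.2%). Members whose effect differed between days numbered 13 with array weights and 2 with the spike-in covariate. The share of all genes was not counted for that test in these settings. The male-biased covariate and the omission of muscle-rich arrays were chosen after seeing the data. Except where a covariate or fewer arrays made the change, the cause was not tested.

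Leaving out 1 array gave 6 to 9, 5 to 10, 10 to 16 and 10 to 21 members lower at days 1, 7, 28 and 91. The shares of all genes lower ran from 13.4% to 16.5%, 8.08% to 11.3%, 13.8% to 19.1% and 10.9% to 18.7%. Members higher ran from 0 to 1, 0 to 2, 0 to 0 and 0 to 0. The shares of all genes higher ran from 13.4% to 16.4%, 4.17% to 5.45%, 7.93% to 14.5% and 3.00% to 5.52%. Members that differed between days ran from 5 to 7 and those changing in controls from 18 to 24, with no share of all genes counted for these 2 tests. The count of 5 at day 7 and of 10 at day 91 came without control replicate 3 or treated replicate 3. No paired analysis was possible because the labels give no replicate numbers. The protein comparison planned for the Acot and Cyp4a families was not run, since no protein sequences were used here.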
